A study of Homo sapiens with 5 samples.

Results

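The genes described here are 10 integrin subunits of cultured fibroblasts, 6 alpha chains (ITGA2, ITGA3, ITGA4, ITGA5, ITGA11 and ITGAV) and 4 beta chains (ITGB1, ITGB3, ITGB5 and ITGB8). They were picked by symbol from the 26364 genes of the deposited table, which lists 26 integrin subunit genes in all, and each of the 10 symbols was found. The values are from mRNA-seq of growing IMR-90 cells, human lung fibroblasts that the study describes as primary. In them NSD2, a histone H3 lysine 36 methyltransferase, was depleted by RNA interference. The 2 Ctr-KD libraries came from cells transfected with a control siRNA (Ctr), and the 3 NSD2-KD libraries from cells transfected with the siRNA NSD2-1, NSD2-2 or NSD2-3. All were IMR-90 cells, grown in serum-containing medium, and collected 24 hr after transfection. Each NSD2 siRNA has 1 library, so that an effect of a single siRNA and the variation of a single culture cannot be told apart. The comparison asked how the loss of NSD2 altered the transcriptome of proliferating fibroblasts.

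Integrins are the receptors with which a fibroblast holds on to its matrix. Each receptor is a pair of an alpha and a beta chain that cross the membrane, bind the matrix outside and link to actin inside through talin, kindlin and other adaptors, and the pair decides the ligand. The beta1 chain, encoded by ITGB1, pairs with most alpha chains. With alpha2 or alpha11 it binds collagen, with alpha3 laminin, with alpha5 fibronectin, and with alpha4 fibronectin or VCAM1. The alphaV chain pairs with beta1, beta3, beta5 or beta8 and binds vitronectin, fibronectin or the latent form of TGF-beta, which some of these receptors activate.

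The libraries held between 2473691 and 2845063 reads on genes, and 3 reads, the level taken as not distinguishable from 0, were worth between 2.76 and 3.28 normalized counts. NSD2, listed under its older symbol WHSC1, had 463 and 443 normalized counts in the Ctr-KD libraries and 90.2, 81.9 and 87.9 with NSD2-1, NSD2-2 and NSD2-3. Between the 2 Ctr-KD libraries the reads of 12373 genes varied barely beyond counting noise, with a chi-square of 1.05 per degree of freedom, and any other pair of libraries had 3.87 to 5.29. The study's methods call them biological replicates, so both were counted, but nothing else states that they are separate cultures. The p-values thus measure the spread between these libraries. Each test takes 1 spread per gene for both groups. The p-values and intervals therefore mix the near-counting noise of the Ctr-KD pair with the larger differences between the siRNAs. All 9 fibroblast markers examined, such as COL1A1, DCN, PDGFRA and VIM, were above the filter on low counts, a mean of 10 normalized counts. The 6 epithelial, 6 leukocyte and 3 platelet markers were all below it, with summed normalized counts of at most 5.14, 2.18 and 0.953 in any library. Of 5 endothelial markers only TEK was above the filter (summed counts of 99.6 to 156), as were MYH11 and CNN1 among 3 smooth muscle markers (331 to 386).

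In these cells 8 of the 10 integrin subunits had values between 80% and 125% of the Ctr-KD mean with all 3 siRNAs. ITGA2 and ITGB8 did not. None of the 10 was past the threshold of an adjusted p of 0.05 in limma, and the same was found with edgeR's quasi-likelihood test and with DESeq2 on the recovered reads. The shares of all tested genes past this threshold were 0.0884% with limma, 0.141% with edgeR and 0.523% with DESeq2. At such low shares, the absence of calls among 10 genes does not show that their levels were unchanged. At an unadjusted p under 0.05 in limma there was 1 member, ITGA3, where 9.18% of all tested genes passed. The median log2 difference of the 10 members, NSD2-KD minus Ctr-KD on the log2(normalized count + 1) scale, was -0.0067, and that of the 11313 tested genes was -0.0089. In limma the members ran from -0.22 (ITGB8) to 0.21 (ITGA3), with 5 below and 5 above 0. This depended on the method, since with edgeR and DESeq2 ITGA11 was lowest (-0.17 and -0.16) and ITGA2 was above 0 (0.05 in both). Of the 30 values that 10 genes and 3 siRNAs give, 26 lay between 80% and 125% of the Ctr-KD mean, and the other 4 belonged to ITGA2 and ITGB8. In bulk RNA, fewer cells that express a gene and less of its mRNA per cell cannot be told apart.

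**Figure D1:**
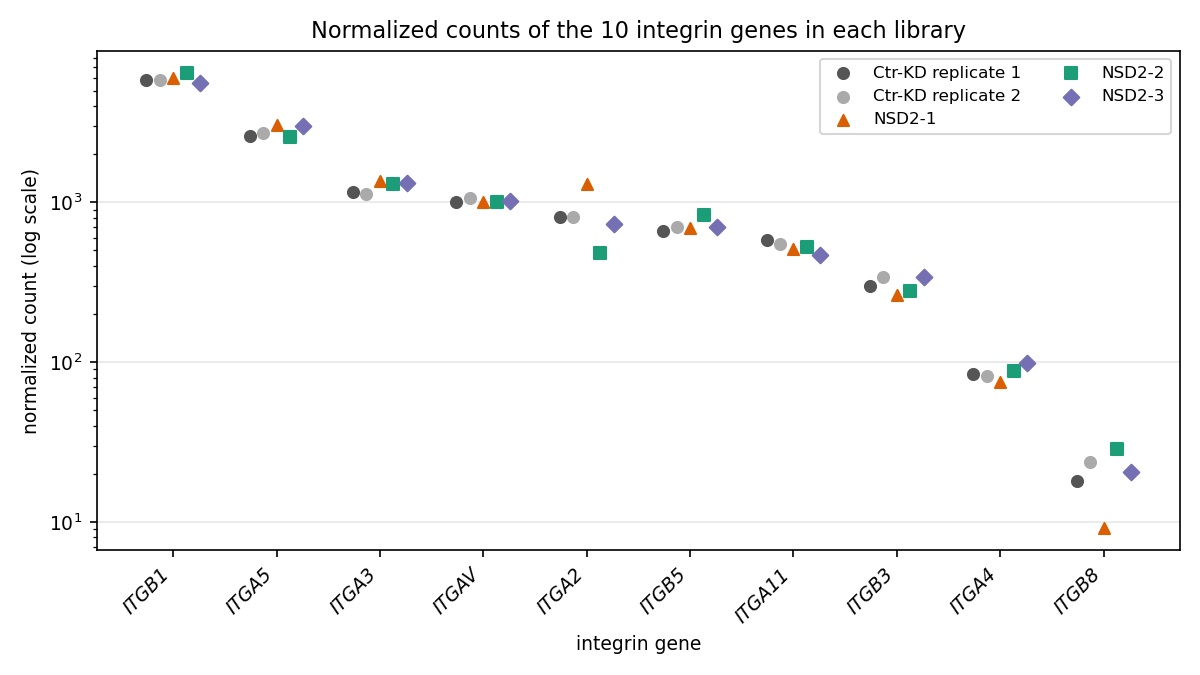
Normalized counts (log scale) of each integrin gene in the 2 Ctr-KD libraries (circles) and with NSD2-1 (triangles), NSD2-2 (squares) and NSD2-3 (diamonds), 1 point for each library. The 5 points of most genes lie together, and those of ITGA2 and ITGB8 spread apart with the siRNA.

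ITGB1, the shared partner of the beta1 receptors, was the most abundant member. It lies on chromosome 10 of GRCh37 (the assembly of hg19) from 33176201 to 33294720, on the minus strand. Ctr-KD cells had 5869 and 5872 normalized counts of it, against 5998, 6409 and 5553 with NSD2-1, NSD2-2 and NSD2-3. The NSD2-KD libraries lay on both sides of the Ctr-KD pair. The difference was 1.02-fold, with a 95% interval from limma of 0.888 to 1.17 (adjusted p = 0.953).

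ITGA5, the alpha chain of the fibronectin receptor, lies on chromosome 12 from 54789045 to 54813050. It had 2615 and 2719 normalized counts in Ctr-KD cells and 3045, 2579 and 3008 with NSD2-1, NSD2-2 and NSD2-3. With NSD2-2 it was below both Ctr-KD libraries and with the other siRNAs above both. The fold was 1.08 (interval 0.922 to 1.26, adjusted p = 0.802 from limma). FN1, which encodes its ligand fibronectin, differed by -0.02 on the log2 scale (limma, adjusted p = 0.963).

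ITGA3, the laminin-binding alpha3 chain, on chromosome 17 from 48133332 to 48167845, was 1 of 2 members where the groups did not overlap. Ctr-KD cells had 1167 and 1133 normalized counts (mean 1150 ± 24.3, SD, n = 2). NSD2-1, NSD2-2 and NSD2-3 gave 1369, 1308 and 1324 (mean 1333 ± 32.0, SD, n = 3). The 3 siRNAs gave nearly the same value, between 114% and 119% of the Ctr-KD mean, and each was above both Ctr-KD libraries, as in 13.8% of all tested genes. The log2 difference was 0.21 (standard error 0.083), with an unadjusted p of 0.0324 and an adjusted p of 0.483 from limma. It was not past the threshold over all genes in any alternative, where its log2 difference ran from 0.19 to 0.23.

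The other member without overlap was ITGA11, which encodes the collagen-binding alpha11 chain and is typical of fibroblasts. It lies on chromosome 15 from 68588870 to 68724502, on the minus strand. Ctr-KD cells had 577 and 548 normalized counts (mean 563 ± 20.5, SD, n = 2). NSD2-1, NSD2-2 and NSD2-3 gave 511, 529 and 471 (mean 503 ± 29.8, SD, n = 3). All 3 siRNAs lay below both Ctr-KD libraries, as in 13.9% of all tested genes. ITGA11 differed by -0.16 on the log2 scale, with a standard error of 0.10 and an adjusted p of 0.690 from limma, and the interval of the fold was 0.761 to 1.05.

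ITGA2, which encodes the other collagen-binding chain, alpha2, differed most between the siRNAs among the abundant members. It lies on chromosome 5 from 52285170 to 52390609. It had 813 and 808 normalized counts in Ctr-KD cells (mean 810 ± 3.55, SD, n = 2), 1305 with NSD2-1, 483 with NSD2-2 and 736 with NSD2-3 (841 ± 421, SD, n = 3). With NSD2-1 the level was 161% of the Ctr-KD mean, above both Ctr-KD libraries, with NSD2-2 it was 59.6%, and with NSD2-3 90.9%, both below them. These values rest on 1418, 442 and 754 reads. Their exact Poisson 95% intervals, 1238 to 1375 with NSD2-1, 439 to 530 with NSD2-2 and 684 to 790 with NSD2-3, did not overlap each other. Such intervals cover counting error only, since the reads carry no molecular identifiers.

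The mean over the siRNAs hid this spread. The log2 difference of ITGA2 was -0.07 with a standard error of 0.34 (adjusted p = 0.969 from limma), and the interval of the fold, 0.561 to 1.63, was the widest of the 6 alpha chains. The sign was opposite with edgeR and DESeq2 (both 0.05). Without the NSD2-1 library the log2 difference was -0.44, and without the NSD2-2 library 0.27, neither past the threshold. The highest siRNA stood 2.70 times above the lowest, and of the 901 tested genes with a mean of at least 500 normalized counts only 11 (1.22%) had a larger ratio, where the median ratio was 1.17. This comparison was made after the values had been seen. Differences between the siRNAs and between single cultures cannot be told apart.

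**Figure D2:**
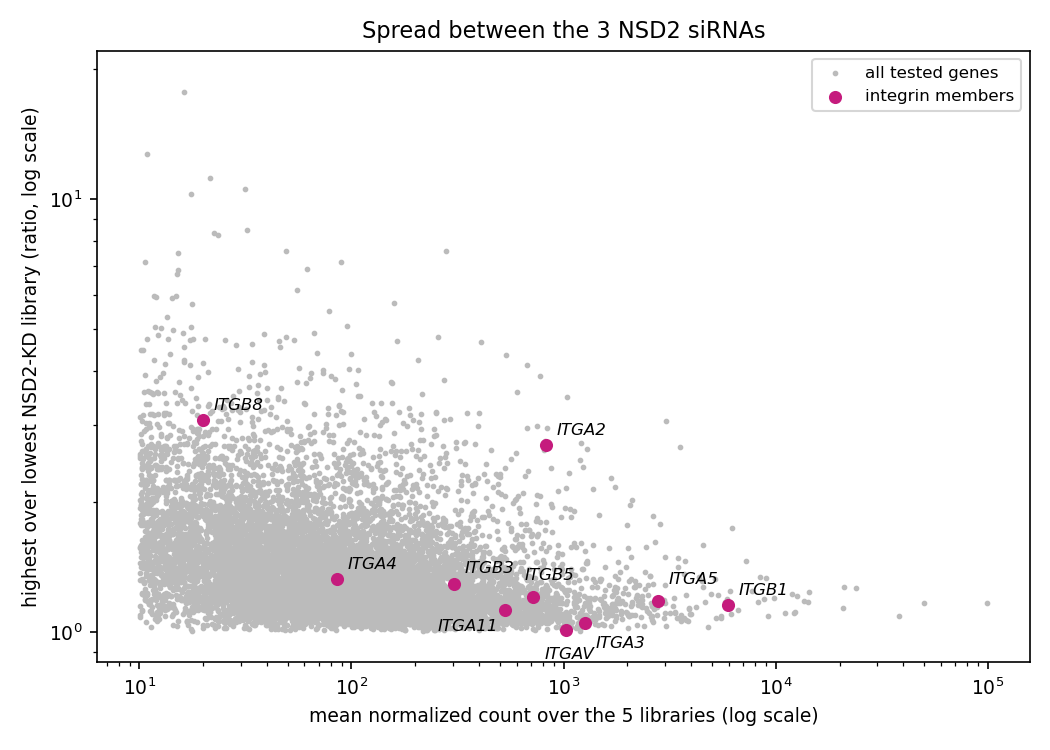
Ratio of the highest to the lowest NSD2-KD library (log scale) against the mean normalized count over the 5 libraries (log scale) for each tested gene (grey) and for the integrin genes (pink). ITGA2 lies at 2.70 among abundant genes, ITGB8 at 3.09 among genes with few reads, and the other integrins at 1.32 or less.

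The sequences just before the start of ITGA2 and ITGA11 are shown because these collagen-binding chains had unlike values across the siRNAs. They were thus chosen after the values had been seen, and a link between sequence and values was not tested. Both are 200 bases before the first RefSeq start listed for the gene, taken from RefSeq's promoter table (built on GRCh38.p14), and each had 1 exact match in GRCh37, at chr5:52284982-52285181 on the plus strand for ITGA2 and at chr15:68724503-68724702 on the minus strand for ITGA11. Capitals mark the Sp1 motif GGGCGG on either strand.
ITGA2: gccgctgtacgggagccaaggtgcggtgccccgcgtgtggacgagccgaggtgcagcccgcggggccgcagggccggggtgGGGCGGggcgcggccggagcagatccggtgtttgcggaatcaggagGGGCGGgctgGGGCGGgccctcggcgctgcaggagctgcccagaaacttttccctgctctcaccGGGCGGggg
ITGA11: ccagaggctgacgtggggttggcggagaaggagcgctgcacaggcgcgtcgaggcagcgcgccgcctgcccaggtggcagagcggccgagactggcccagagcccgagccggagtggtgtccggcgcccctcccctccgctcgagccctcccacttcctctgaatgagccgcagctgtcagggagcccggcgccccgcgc

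The ITGA2 stretch holds 4 Sp1 motifs and is 76% G and C, and the ITGA11 stretch holds none and is 74.5% G and C. Of the members, 8 were in the promoter table, all but ITGA3 and ITGB3. Over 250 bases before the start, 5 of these 8 (ITGA2, ITGA5, ITGB1, ITGB5 and ITGB8) held at least 1 GGGCGG, against 42.3% of 27305 promoters. ITGA2 held 4, ITGB1 3, ITGB5 and ITGB8 2 each and ITGA5 1, while ITGA4, ITGA11 and ITGAV held none. ITGA5 and ITGB1 held the TEAD motif GGAATG (11.9% of promoters), and ITGB8 the NF-Y motif CCAAT (33% of promoters). None of the 8 searched members held the AP-1 motif TGANTCA (6.6%), the E2F motif GGCGGGAA (2.77%) or the TATA motif TATAAA (11.1%). All motifs were sought on both strands. A match describes letters in this window and is not a measured binding site.

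The chains of the alphaV receptors are ITGAV and its partners ITGB3, ITGB5 and ITGB8. ITGAV, on chromosome 2 from 187454737 to 187545628, had 1009 and 1072 normalized counts in Ctr-KD cells and 1007, 1012 and 1018 with NSD2-1, NSD2-2 and NSD2-3. The siRNAs gave almost equal values, with a ratio of highest to lowest of 1.01, and 899 of the 901 genes with a mean of at least 500 spread further. The difference was 0.973-fold (interval 0.849 to 1.12, adjusted p = 0.924 from limma).

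ITGB5, a vitronectin-binding partner of alphaV, lies on chromosome 3 from 124480795 to 124620265. It had 660 and 696 normalized counts in Ctr-KD cells and 693, 835 and 703 with NSD2-1, NSD2-2 and NSD2-3. It stood apart only with NSD2-2, at 123% of the Ctr-KD mean, and the groups overlapped. The fold was 1.09 (interval 0.914 to 1.30, adjusted p = 0.795 from limma).

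ITGB3, the beta3 chain of the other vitronectin receptor, lies on chromosome 17 from 45331193 to 45391109. It had 300.1 and 338 normalized counts in Ctr-KD cells and 263, 277 and 339.7 with NSD2-1, NSD2-2 and NSD2-3. NSD2-1 and NSD2-2 were below both Ctr-KD libraries and NSD2-3 above both. The fold was 0.915 (interval 0.732 to 1.14, adjusted p = 0.839 from limma). A gene that GENCODE names only by its identifier and that is not listed in the table covers 38.1% of the exon bases of ITGB3 on the same strand, which leaves the count of ITGB3 uncertain.

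ITGB8, on chromosome 7 from 20370325 to 20455377, encodes the beta8 chain of a receptor that binds latent TGF-beta, and was the least abundant member. It was measured at 18.1 and 23.7 normalized counts in Ctr-KD cells and 9.20, 28.4 and 20.5 with NSD2-1, NSD2-2 and NSD2-3. These rest on 19, 23, 10, 26 and 21 reads, and the counting intervals of NSD2-1 (4.41 to 16.9) and NSD2-2 (18.6 to 41.6) were the only ones among the siRNAs that did not overlap. The fold of 0.858 had a wide interval of 0.428 to 1.72 (adjusted p = 0.915 from limma). Neither the direction nor the size of a difference could be told from these libraries.

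ITGA4, the alpha4 chain that binds fibronectin and VCAM1, lies on chromosome 2 from 182321929 to 182403667. It had 83.8 and 81.3 normalized counts in Ctr-KD cells and 74.5, 88.5 and 98.6 with NSD2-1, NSD2-2 and NSD2-3. With NSD2-1 it was below both Ctr-KD libraries and with the other siRNAs above both. The fold was 1.05 (interval 0.798 to 1.38, adjusted p = 0.935 from limma). Exons of CERKL on the other strand cover 41.5% of its exon bases, and the strand setting of the counting is not given in the sources used here, so that reads of the pair may not be told apart. CERKL had between 9.53 and 15.3 normalized counts.

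**Figure D3:**
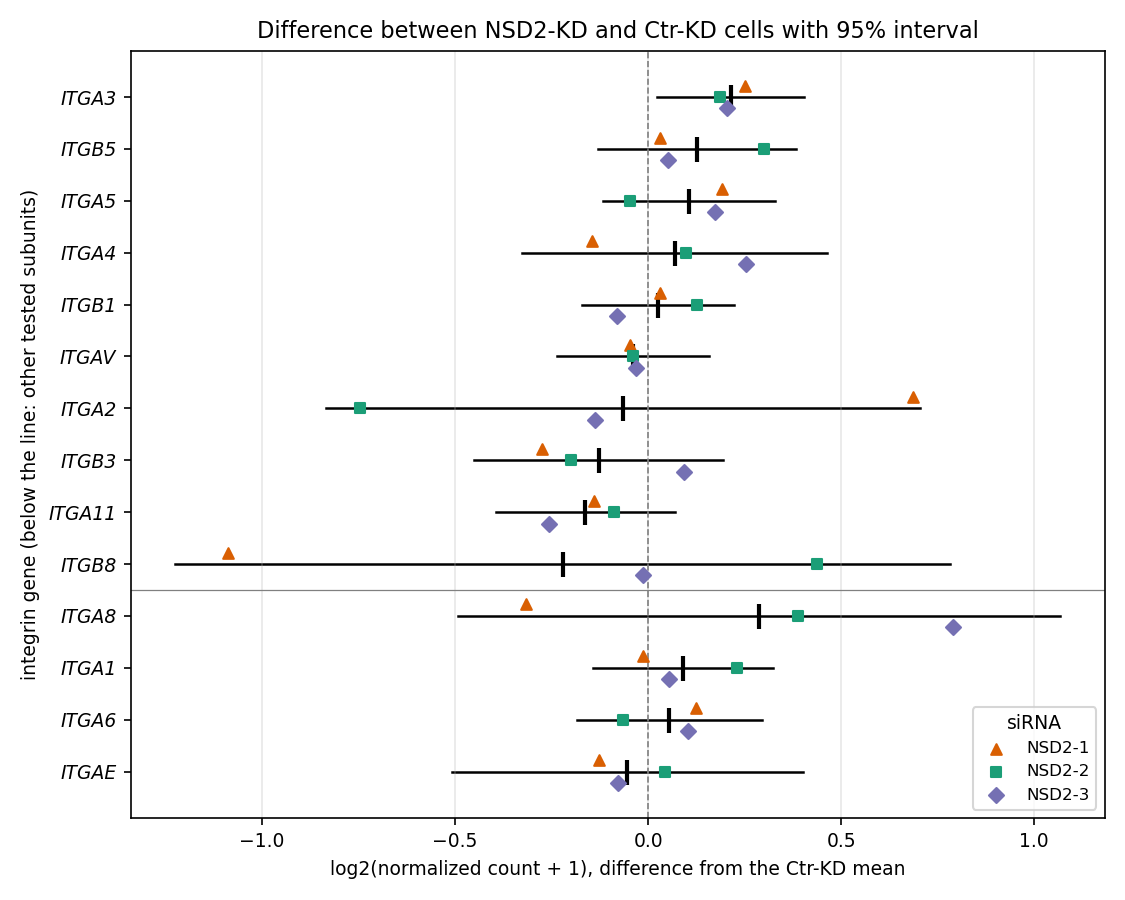
Difference between NSD2-KD and Ctr-KD cells on the log2(normalized count + 1) scale for the integrin genes and 4 other tested subunits, with the fitted difference (vertical tick), its 95% interval from limma (line) and each siRNA against the Ctr-KD mean (symbols). Of the 10 members only the interval of ITGA3 (0.023 to 0.40) does not cross 0, and those of ITGA2 and ITGB8 are the widest.

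To compare the subunits with each other, normalized counts were divided by the length of each gene's canonical GENCODE transcript. ITGB1 had 1572 ± 0.568 normalized counts per kilobase in Ctr-KD cells (SD, n = 2) and 1603 ± 115 in NSD2-KD cells (SD, n = 3). ITGA5 came next with 628 ± 17.3 and 677 ± 61.0, followed by ITGA3 with 235 ± 4.96 and 273 ± 6.54. ITGB5 (153 ± 5.78 in Ctr-KD cells) and ITGAV (148 ± 6.34) came after these, and the values of their Ctr-KD libraries overlapped. Then came ITGA2 with 103 ± 0.452 in Ctr-KD cells and 107 ± 53.7 in NSD2-KD cells, and its NSD2-KD libraries ranged from 61.6 to 166, across all values of ITGAV. With the length of all annotated exons, an alternative chosen after seeing the data, ITGA2 ranked above ITGAV, and ITGB1 and ITGA5 lay close together. Their Ctr-KD means were then 403 and 361 normalized counts per kilobase. ITGA5 was above ITGB1 with NSD2-1 (412.4 against 411.9) and NSD2-3 (407 against 381) and below it in the other libraries, so that the order of these 2 chains depends on the length taken. ITGA11 (55.2 ± 2.01 in Ctr-KD cells) and ITGB3 (53.7 ± 4.57) could not be ordered, since their libraries overlapped in both groups. ITGA4 (12.2 ± 0.267) and ITGB8 (2.33 ± 0.438) were lowest.

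Among the 6 alpha chains, per kilobase, ITGA5 made up 53.1% ± 0.748 in Ctr-KD cells (SD, n = 2) and 53.6% ± 1.58 in NSD2-KD cells (SD, n = 3). The share of ITGA2 was 8.86% and 8.63% in the Ctr-KD libraries and 12.2%, 5.38% and 7.34% with NSD2-1, NSD2-2 and NSD2-3. It was thus above both Ctr-KD libraries with NSD2-1 and below both with the other siRNAs. The share of ITGAV was 12.5% ± 0.368 and 11.4% ± 1.05. Among the 4 beta chains, ITGB1 made up 88.3% ± 0.531 in Ctr-KD cells and 88.0% ± 0.825 in NSD2-KD cells. ITGB5 held 8.58% ± 0.270 in Ctr-KD cells, with 8.64%, 9.62% and 9.29% for NSD2-1, NSD2-2 and NSD2-3, the first of which lay between the Ctr-KD libraries. These shares are of mRNA reads per length among the chosen members only, and depend on the transcript length taken. Other alpha chains, such as ITGA1 (851 and 848 normalized counts in Ctr-KD cells) and ITGA6 (473 and 474), are not part of them. With the length of all annotated exons the Ctr-KD means were 72.6% for ITGB1, 18.7% for ITGB5, 14.8% for ITGA2 and 7.75% for ITGAV.

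**Figure D4:**
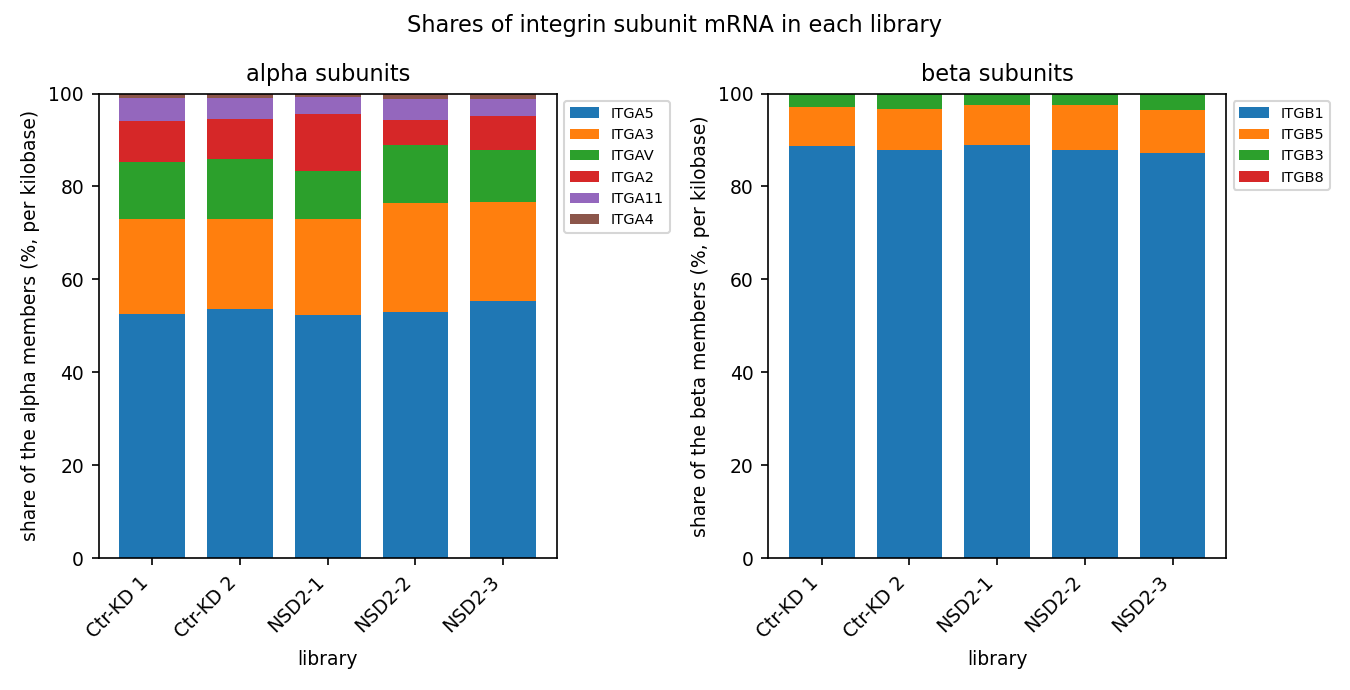
Share of each subunit (%, normalized counts per kilobase of the canonical transcript) among the 6 alpha chains (left) and the 4 beta chains (right), 1 bar for each library. ITGA5 and ITGB1 make up most of each bar in all 5 libraries, and the share of ITGA2 runs from 5.38% with NSD2-2 to 12.2% with NSD2-1.

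Ratios between chains known to pair were taken within each library, where the size factor cancels. In 3 of 9 pairs the NSD2-KD libraries did not overlap the Ctr-KD libraries, 1 above and 2 below them, beside the 13.8% above and 13.9% below among all tested genes. Those shares are for the counts of single genes, and no share over ratios of other gene pairs was taken. The 9 pairs also share chains and are not independent, so that this count cannot be set against a background. The log2 ratio of ITGA11 to ITGB1 was -3.35 and -3.42 in Ctr-KD cells and -3.55, -3.60 and -3.56 with NSD2-1, NSD2-2 and NSD2-3, a difference of -0.19. That of ITGA3 to ITGB1 was -2.33 and -2.37 against -2.13, -2.29 and -2.07, a difference of 0.19, and that of ITGAV to ITGB5 was 0.61 and 0.62 against 0.54, 0.28 and 0.53, a difference of -0.17. The exact permutation test, two-sided, gave p = 0.1 for ITGA11 to ITGB1, the smallest that 2 against 3 libraries allow, 0.2 for ITGA3 to ITGB1 and 0.3 for ITGAV to ITGB5. Adjusted over the 9 pairs no p was below 0.9, so that no pair passed, and this permutation test could not have given a p under 0.05 with 2 against 3 libraries.

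Of the 16 other integrin subunits, 4 were above the filter, and none of them passed the threshold. ITGA1, a further collagen-binding chain, had 851 and 848 normalized counts in Ctr-KD cells and 842, 996 and 881 with NSD2-1, NSD2-2 and NSD2-3. ITGA6, a laminin-binding chain, had 473 and 474 against 516, 453 and 509.6. ITGA8 had 26.7 and 39.1 against 25.8, 42.6 and 56.6, and ITGAE 44.8 and 38.1 against 37.7, 42.6 and 39.0. The groups overlapped in each. The remaining 12 had means of at most 8.55 normalized counts (ITGA7), and the leukocyte chains ITGAL, ITGAX and ITGAD and the epithelial chain ITGB6 were at 0 in every library.

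The genes around the integrins were taken from 6 lists written by hand, with 159 genes in the table, of which 142 were tested. None passed the threshold with limma or edgeR. At an unadjusted p under 0.05 in limma, 2 were lower and 7 higher, which is 9 of 142 beside 9.18% of all tested genes. With DESeq2 1 passed, CLTC, the clathrin heavy chain of endocytosis, with 1633 and 1646 normalized counts in Ctr-KD cells and 2609, 2249 and 2366 with NSD2-1, NSD2-2 and NSD2-3 (adjusted p = 0.0272 from DESeq2 and 0.145 from limma). All 3 siRNAs gave values above both Ctr-KD libraries.

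Of the ligands, 39 of 44 were tested, with a median log2 difference of 0.017. COL1A1, a chain of the collagen bound by the alpha2 and alpha11 receptors, had -0.06, LAMC1, a laminin chain, 0.029, and TNC (tenascin-C) 0.09. TGFBI, a matrix protein that binds integrins, had 0.033 and VCAM1, the ligand of the alpha4 receptor, -0.07. LAMB1, another laminin chain, which was named after its values were seen, was the only ligand higher at an unadjusted p under 0.05 in limma. It had 2074 and 2091 normalized counts in Ctr-KD cells and 2317, 2652 and 2434 for the 3 siRNAs in turn, all above both Ctr-KD libraries, and its log2 difference of 0.24 was not past the threshold (limma, adjusted p = 0.437). THBS1 (thrombospondin-1) had 5056 and 5299 normalized counts in Ctr-KD cells and 6552, 8945 and 5137 with NSD2-1, NSD2-2 and NSD2-3, and the last of these lay between the Ctr-KD libraries. CYR61 (CCN1) and CTGF (CCN2) are matrix proteins that bind integrins. CYR61 had 1329 and 1290 in Ctr-KD cells and 658, 565 and 1043 with NSD2-1, NSD2-2 and NSD2-3, all below both Ctr-KD libraries, and differed by -0.84 on the log2 scale (limma, adjusted p = 0.280). Without NSD2-3, the siRNA nearest to the Ctr-KD values, its log2 difference was -1.10 and it passed the threshold (adjusted p = 0.0137 from limma). It did not pass without the NSD2-1 or the NSD2-2 library. Leaving out the library that differs least favours a pass, so this pass adds no support. CTGF had 1604 and 1652 against 1134, 1045 and 1946, so that NSD2-3 was on the other side of the Ctr-KD libraries.

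Of the adaptors and activators, 43 of 48 were tested, with a median log2 difference of -0.016. TLN1, which encodes talin, had 3594 and 3566 normalized counts in Ctr-KD cells and 3923, 4167 and 3946 with NSD2-1, NSD2-2 and NSD2-3, and the groups did not overlap (adjusted p = 0.578 from limma). FERMT2, the kindlin of fibroblasts, had 738 and 825 against 769, 524 and 367, lower with NSD2-2 and NSD2-3 only. PTK2, the focal adhesion kinase, had 287 and 260.3 against 321, 131 and 294, low with NSD2-2 only. PXN (paxillin) had 495 and 478 against 405, 817 and 753, so that NSD2-1 lay below and the other siRNAs above the Ctr-KD libraries. The log2 differences were 0.050 for VCL (vinculin), -0.11 for ILK, 0.15 for LIMS1, 0.07 for PARVA and -0.04 for ZYX. All of these proteins sit at focal adhesions, where integrins meet actin. RAP1B, a small GTPase that activates integrins through talin, had the highest difference of the list, 0.55 (adjusted p = 0.207 from limma).

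Of 7 inactivators 5 were tested, and SHARPIN had a log2 difference of 0.22 and ITGB1BP1 (ICAP-1) of -0.05. All 20 membrane partners were tested, with a median of 0.063. CD47, which associates with the beta3 receptor, had 324 and 328 normalized counts in Ctr-KD cells and 238, 258 and 289.9 with NSD2-1, NSD2-2 and NSD2-3, below both Ctr-KD libraries in each case (adjusted p = 0.469 from limma). CD151, a tetraspanin bound to the alpha3 receptor, had a log2 difference of -0.01 and PLAUR, the urokinase receptor, of 9.2e-05. SDC4, a syndecan that acts with the alpha5 receptor, had 388 and 406 against 219, 459 and 393, low with NSD2-1 only. Of 31 trafficking genes 28 were tested, with a median of 0.094 and 21 of them above 0, beside 5491 of the 11313 tested genes. Of the membrane partners 15 of 20 were above 0, of the adaptors and activators 21 of 43, and over all 6 lists 86 of 142. The genes of a list are not independent, and these counts were not tested. RAB21, which takes integrins into endosomes, had 126 and 133 against 141, 175 and 51.7, low with NSD2-3 only, and SNX17, which returns beta1 to the surface, had a log2 difference of 0.07, DAB2 of 0.13 and ARF6 of -0.30. Of 9 genes of latent TGF-beta 7 were tested. TGFB1 had a log2 difference of 0.23 and LTBP1 of -0.11. TGFB2 had 141 and 150.2 normalized counts in Ctr-KD cells and 62.6, 60.1 and 155 with NSD2-1, NSD2-2 and NSD2-3, the last of which was above both Ctr-KD libraries. Its log2 difference was -0.79 and not past the threshold (limma, adjusted p = 0.580). Without the NSD2-3 library, the only one on the other side, it was -1.23 and passed (limma, adjusted p = 0.0369). TGFB2 did not pass without the NSD2-1 or the NSD2-2 library. Leaving out the only siRNA that disagrees favours a pass, so this pass adds no support.

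A difference between single siRNAs was thus not particular to ITGA2. Among genes with a mean of at least 50 normalized counts, the highest siRNA was at least 2 times the lowest for 1 of 9 members and for 11 of 136 pathway genes (8.09%), against 5.96% of all 7586 such genes. LPP, an adaptor of focal adhesions that was named after its values were seen, had 1032 and 962 in Ctr-KD cells and 315, 933 and 917 with NSD2-1, NSD2-2 and NSD2-3. Of the 27 values of the 9 members 92.6% lay between 80% and 125% of the Ctr-KD mean, against 75.1% over all such genes. The part of read depth in this difference was not tested.

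**Figure D5:**
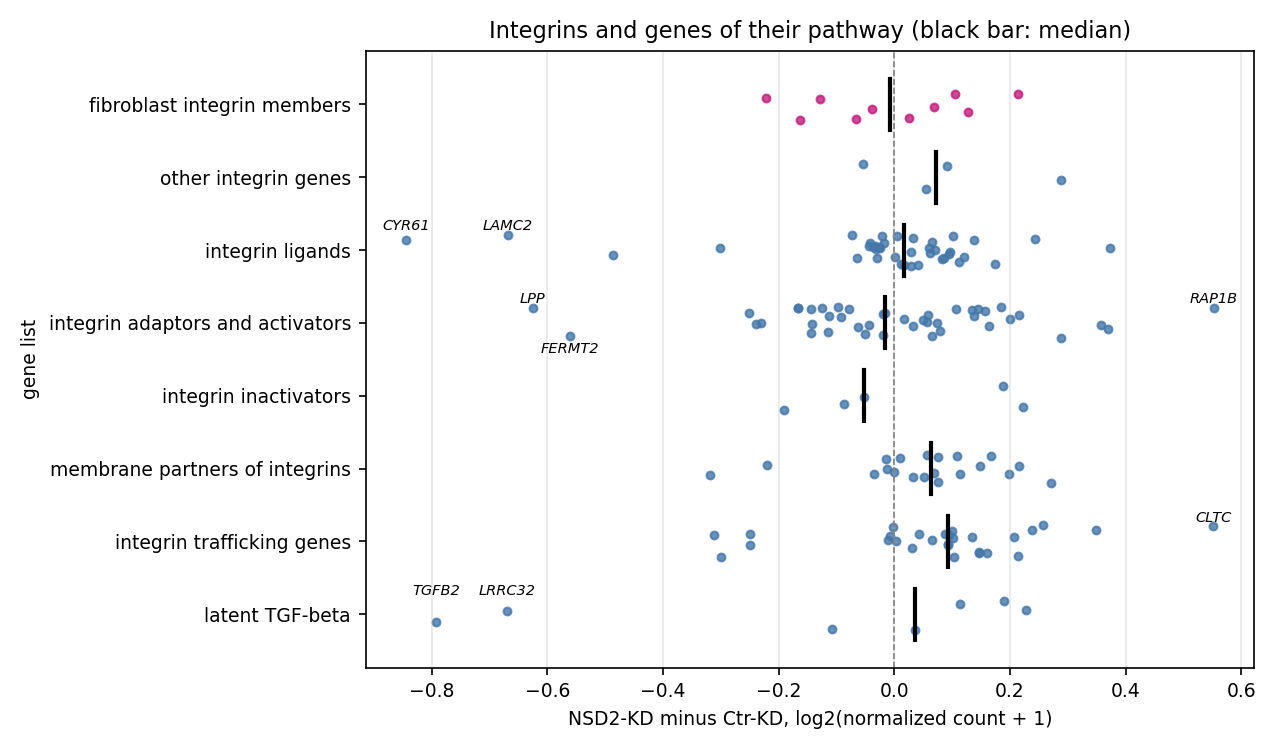
Log2 difference, NSD2-KD minus Ctr-KD on the log2(normalized count + 1) scale, of each tested gene by list, with the median of the list as a black bar and genes beyond 0.5 in either direction named. The integrin members (pink) lie between -0.22 and 0.21, and single genes of other lists reach -0.84 (CYR61) and 0.55 (RAP1B).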

How the data were processed

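mRNA-seq was analysed for 2 Ctr-KD and 3 NSD2-KD libraries, grouped by the sample labels. According to the study's methods, the authors used Trimmomatic for trimming the single-end reads, HISAT2 for alignment (hg19), SAMtools for keeping unique reads and featureCounts for counting. The signal deposited for each gene is the read count that the authors divided by a DESeq2 size factor per library. A shift shared by all genes would not be seen. The annotation and the strand setting are not given in the sources used here. A further deposited table holds the authors' own DESeq2 comparison and was not used. All values (100%, within 0.001 of a read) were whole multiples of the value that 1 read had in their library, which gave the reads.

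Testing covered the 11313 genes whose normalized counts averaged 10 or more, by limma 3.58.1 (mean-variance trend) on log2(normalized count + 1), two-sided, with Benjamini-Hochberg adjustment over all of them and a threshold of 0.05. Adding 1 draws the differences of genes with few reads towards 0. For ITGB8, however, the log2 difference from limma (-0.22) was larger in size than those from edgeR (-0.14) and DESeq2 (-0.12). edgeR 4.0.16 and DESeq2 1.42.0 on the reads were alternatives, beside other pseudocounts, filters and normalizations, limma without the trend, a replicate block and leaving out each library. The scripts were tested on simulated data. Named were the 10 members, other tested integrins, genes marked in the lists, and any list gene past the threshold. CLTC, RAP1B, LAMB1, LPP and ITGA7 lie outside this rule and were named after their values were seen. The members and the lists were chosen with earlier results of these data known. Positions and lengths are from GENCODE v44lift37 on GRCh37. Of the listed names, 28 look like dates and were left as they are.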

Additional observations from a re-analysis of the deposited data

How the results depend on the processing

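No member passed the threshold under any of the alternatives run. The sign of the difference was kept in all of them for ITGA3, ITGA5, ITGA11, ITGB3 and ITGB5, and was opposite in 3 of 14 alternatives for ITGA2, 2 of 14 for ITGA4 and ITGB1, 1 of 14 for ITGAV and 1 of 13 for ITGB8, which the minimum of 50 leaves out. The median log2 difference of the members (-0.0067) was 0.026 with that minimum, 0.035 with edgeR, 0.041 with DESeq2, -0.042 with quantile normalization and -0.026 with the replicate block, and ran from -0.026 to 0.043 with single libraries left out. The number of genes called over the whole table (10, of which 6 lower and 4 higher) was 1 without the trend, 16 with edgeR (11 lower and 5 higher), 55 with DESeq2 (41 lower and 14 higher) and 102 with the replicate block (84 lower and 18 higher), and ran from 0 without either Ctr-KD library to 30 without NSD2-KD replicate 3, with 16 without NSD2-KD replicate 1 and 4 without NSD2-KD replicate 2. A Ctr-KD library left alone is assumed to vary like the other group. Pathway genes called were 1 with DESeq2 (CLTC), 4 with the replicate block (CYR61, TGFB2, CLTC and CTGF) and 0 to 2 with single libraries left out (CYR61 and TGFB2 without NSD2-KD replicate 3). The cause of these shifts was not tested. The replicate numbers of NSD2-KD are those of the siRNAs, and same-numbered libraries did not deviate together (correlations of -0.015 and -0.027), so that the block joins libraries that share only a number. NSD2-KD replicate 3 has no Ctr-KD partner, so the block also takes it out of the estimate, and the members' differences were equal to those without that library. Leaving out that library alone gave 30 calls, against 102 with the block. Pairs of chains without overlap numbered 3, and 3 to 6 with single libraries left out (6 without NSD2-KD replicate 3). The share of ITGB1 among the beta chains in NSD2-KD cells was 72.2% with the length of all annotated exons, chosen after seeing the data, in place of 88.0%, and that of ITGB5 20.0% in place of 9.18%.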
